A study of Homo sapiens with 6 samples.

Results

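The C/EBP family and PU.1 are transcription factors that set up the granulocyte and monocyte lineages. Their mRNA was examined here in OCI-AML2 cells, a long-established line grown from a patient's acute myeloid leukemia. The members were taken by symbol: CEBPA, CEBPB, CEBPD, CEBPE, CEBPG, CEBPZ and SPI1, which encodes PU.1. These are 7 of the 58233 Ensembl gene identifiers in the deposited count table, and each symbol matched 1 identifier. All 7 passed the filter on low counts, among 13028 genes tested.

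The series compared 3 libraries labelled IKZF1-ko, from OCI-AML2 cells in which IKZF1 was targeted by CRISPR, with 3 libraries labelled NT control, from the same line with a guide that has no target. The product of IKZF1 is Ikaros, a factor that binds DNA through zinc fingers and acts in blood cell development. All groups were grown in the same medium, and no drug is named for them. The labels do not say whether the edited cells were 1 clone, several clones or a pool, nor whether replicates were separate cultures or repeat extractions. The p-values rest on the spread from library to library, and part of that may be technical. In the fits over all genes this spread was estimated in part from all genes together. Small p-values there do not rest on each gene's own few libraries alone.

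C/EBP proteins carry a basic region that binds DNA and a leucine zipper through which they pair, and most family members can pair with each other. In the granulocyte lineage C/EBPα acts early, at the commitment of progenitors, and C/EBPε acts late, at the making of secondary granules. C/EBPβ takes over when infection or cytokines call for more granulocytes, and C/EBPδ is induced by inflammatory signals. C/EBPγ lacks an activation domain and pairs with ATF4, the effector of the integrated stress response. PU.1 belongs to the ETS family and drives monocyte and granulocyte genes together with the C/EBPs. CEBPZ shares the name, but its product is a CCAAT-binding protein of the nucleolus without the leucine zipper of the others.

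Short stretches of the start regions of CEBPE and CEBPG, the members whose groups did not overlap, are shown because they hold matches to the motifs of PU.1, Ikaros or the C/EBP-ATF4 pair. They are from RefSeq on GRCh38.p14, 30 bases each, read on the strand of the gene, with the matching letters in capitals.
CEBPE, PU.1 motif, chr14:23119278-23119307: cattgactacaGAGGAAGgaaaaggaagca
CEBPE, Ikaros motif, chr14:23119476-23119505: gagaggcaTTCCCAgaagcatcagcttcgg
CEBPG, C/EBP-ATF4 motif, chr19:33374060-33374089: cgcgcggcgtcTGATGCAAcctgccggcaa

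The motifs were searched on both strands of windows from 250 bases before to 50 bases after each RefSeq start. The letters for PU.1 were GAGGAAG, which 13.6% of all 35116 windows hold. For Ikaros they were TGGGAA, held by 24% of windows, and the CEBPE match is on the other strand, so that the capitals read TTCCCA. For the C/EBP-ATF4 pair they were TGATGCAA, held by 0.866% of windows. The C/EBP motif TTGCNNAA, held by 10.5%, and the palindrome TTGCGCAA, held by 0.151%, which is one form of it, were in none of the windows of CEBPA, CEBPB, CEBPE, CEBPG or CEBPZ. The CEBPE matches begin 41 and 242 bases before the RefSeq start. GENCODE release 29 places the start of CEBPE 361 bases farther upstream, so both matches lie in its first exon, before the coding sequence. The CEBPG match lies 42 bases before the second of its RefSeq starts and outside the exons of GENCODE release 29. CEBPZ had 1 PU.1 match and CEBPB 1 Ikaros match. A match of letters is a description and not a bound site.

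The libraries held 11300519 to 18214328 counted reads. NT control replicate 2 and IKZF1-ko replicate 1 stood apart from the other 4 libraries on the first principal component, which held 67.6% of the variance (scores 39.5 and 50.1, against -29.1 to -16.3). No label names a batch that they share. The group difference was therefore taken in all 6 libraries and in the 4 others alone, 2 against 2. In these 4, both IKZF1-ko libraries were deeper (18214328 and 16751839 counts) than both NT control libraries (11699047 and 11300519), and the part of depth in the calls was not tested. IKZF1 mRNA was at 292 to 334 CPM (read counts relative to library size, with TMM factors) in NT control and at 421 to 436 CPM in IKZF1-ko. It was not lower in the libraries labelled IKZF1-ko, and counts per gene do not show an edit or the protein, so every direction given holds for the libraries as labelled. Of the genes listed as myeloid markers, CD33 (72.3 to 96.2 CPM), LYZ (169 to 298 CPM), ITGB2 (48.9 to 65.9 CPM) and MPO (20 to 32.8 CPM) were present in all libraries. So was PTPRC (334 to 396 CPM), which is not limited to myeloid cells, while ANPEP stayed under 1 CPM. Markers of other cell types were at 0 in part: the erythroid genes ALAS2 and AHSP, the lymphoid genes CD3E, CD7 and MS4A1, the platelet gene PF4 and all 4 epithelial markers had 0 counts. Others of these lists were present, with EPOR at 9.99 to 21.5 CPM, NKG7 at 6.08 to 10 CPM and CD79B at 1.27 to 2.13 CPM. Of 5 fibroblast and endothelial markers, COL1A1, COL3A1 and VWF stayed under 1 CPM, PECAM1 was at 73.2 to 93.9 CPM and PDGFRB at 12.2 to 51.9 CPM, highest in the 2 libraries that stood apart, and their sum was 96.5 to 130.3 CPM in NT control and 92.9 to 143 CPM in IKZF1-ko. The part of these genes in the results was not tested.

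Of the 7 members, CEBPE was the one that separated the groups most clearly: it was lower in all 3 libraries labelled IKZF1-ko than in any NT control library, 1.46-fold on average. CEBPG was slightly higher in all 3, by 1.12-fold. CEBPA (1.04-fold higher) and SPI1 (1.03-fold lower), the highest members, overlapped between the groups. CEBPB and CEBPD overlapped between the groups, and so did CEBPZ. These folds are from the fit of 6 libraries on group alone, in which 0 of the 7 members passed the test.

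Per kilobase of exon, SPI1 and CEBPA stood far above the rest. SPI1 had a mean of 109 ± 7.25 CPM per kb and CEBPA of 92.7 ± 5.09 CPM per kb (SD, n = 6 libraries), and SPI1 was the higher of the pair in each of the 6 libraries. Both lay near the top of all tested genes by CPM, at percentiles 94.7 and 95.2. CEBPE (23.6 ± 5.21 CPM per kb), CEBPD (21.7 ± 4.8) and CEBPG (18.6 ± 1.23) followed, well below CEBPA, and did not differ from each other beyond their spread over the 6 libraries. CEBPZ had 12.9 ± 1.67 CPM per kb, below CEBPG in each of the 6 libraries, and CEBPB was lowest at 3.55 ± 0.638 CPM per kb. Within groups the middle order was not the same. In NT control CEBPE was at 27.5 to 29 CPM per kb, above CEBPD (13.7 to 25) and CEBPG (17 to 18.1) in each library. In IKZF1-ko it was at 16.2 to 21.7 CPM per kb, overlapping CEBPG (19.4 to 20.1) and CEBPD (20.9 to 27.9).

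**Figure D1:**
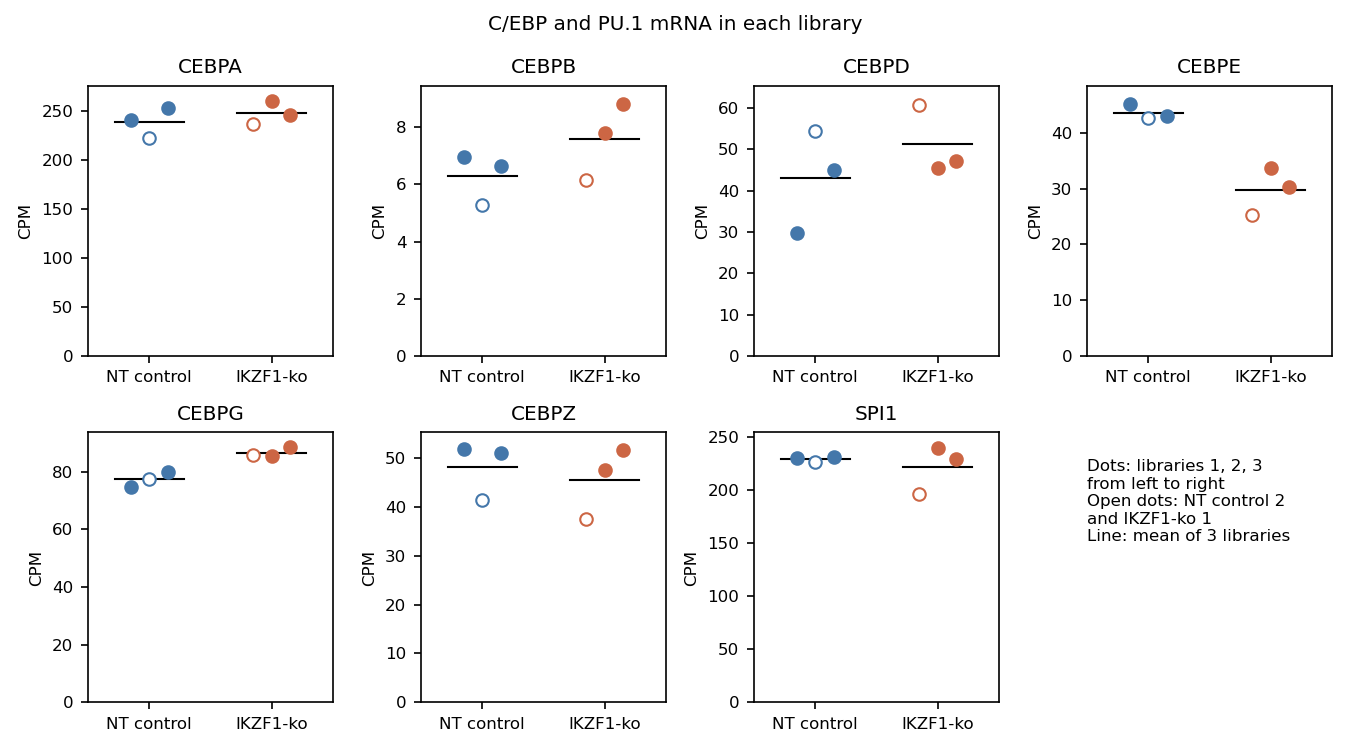
Level of each member in CPM (vertical axes, from 0) in the 6 libraries, by group. Dots are libraries 1, 2 and 3 from left to right, open dots mark NT control 2 and IKZF1-ko 1, and lines are means of 3. CEBPE dots of IKZF1-ko (25.2 to 33.7 CPM) all lie below those of NT control (42.7 to 45.1 CPM), and the CEBPD dots of NT control run from 29.8 to 54.5 CPM.

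CEBPE (ENSG00000092067, GRCh38 chromosome 14, 23117304 to 23119616, minus strand, 2 exons) shares no exon position with another annotated gene. The NT control replicates 1, 2 and 3 had 45.1, 42.7 and 43 CPM. The IKZF1-ko replicates 1, 2 and 3 had 25.2, 33.7 and 30.3 CPM. The groups did not overlap, and NT control replicate 2 lay with its own group although its overall profile stood apart. CEBPE and CEBPG were the 2 of 7 members without overlap, against 9.35% of all tested genes (4.07% lower and 5.28% higher in IKZF1-ko).

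On all 6 libraries and group alone, edgeR's quasi-likelihood test gave CEBPE a log2 fold change of -0.55 (SE 0.133, 95% interval -0.87 to -0.23) with an adjusted p of 0.682. In that fit 0 of 7 members and 0 of 13028 genes (0%) passed, 1 member (CEBPE) and 456 genes had an unadjusted p under 0.05, and DESeq2 called 71 genes and 0 members. In the 4 libraries CEBPE had a log2 fold change of -0.46 (SE 0.0798, edgeR adjusted p = 0.000148), or 1.37-fold lower. There 2 of 7 members passed, CEBPE downward and CEBPD upward, against 14.7% of all genes tested. With a term for the library set in the fit of all 6, CEBPE fell by 0.56 (SE 0.0791, edgeR adjusted p = 0.000167), and it was the 1 member called, against 13.5% of all genes. With a surrogate variable instead, it fell by 0.53 (edgeR adjusted p = 0.000367) and was again the 1 member called, against 7.91% of all genes (3.53% falling and 4.38% rising). In the pair of libraries that stood apart, IKZF1-ko replicate 1 was 1.69-fold below NT control replicate 2, a difference of 1 library per group with no test.

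Ratios of counts within a library do not depend on how libraries are scaled. NT control had 0.196, 0.189 and 0.186 CEBPE counts per SPI1 count in replicates 1, 2 and 3. IKZF1-ko had 0.128, 0.141 and 0.132. The groups did not overlap, and an exact two-sided permutation test gave p = 0.1, the smallest that 3 against 3 can give. Relative to CEBPA the ratio was 0.182 ± 0.0116 in NT control and 0.12 ± 0.0118 in IKZF1-ko (SD, n = 3 each, exact permutation p = 0.1). Of the summed level per kb of the 5 zipper members, CEBPE made up 17.6 ± 1.07% in NT control and 11.9 ± 1.43% in IKZF1-ko. CEBPA made up 57 ± 2.79% and 58.7 ± 1.31% (exact permutation p = 0.5, n = 3 each).

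**Figure D2:**
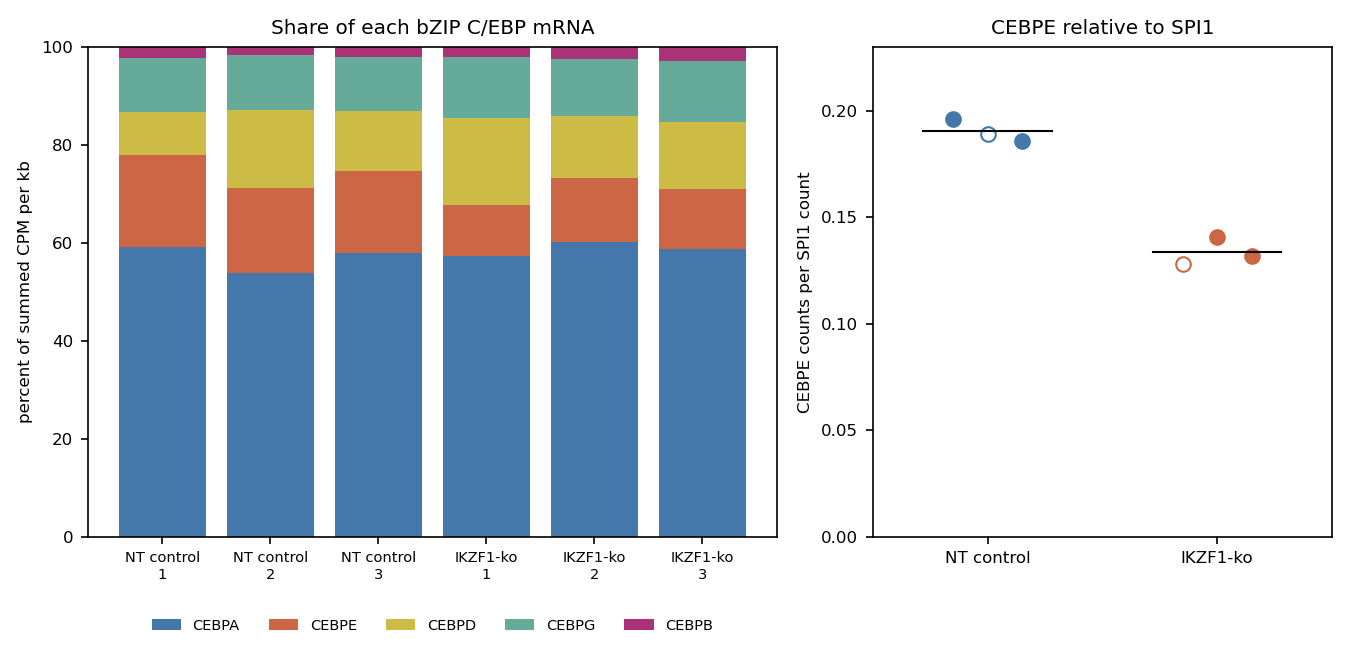
Left, percent of the summed CPM per kb held by each of the 5 leucine zipper C/EBP genes in each library (bars sum to 100). Right, CEBPE counts per SPI1 count in each library, open dots for NT control 2 and IKZF1-ko 1 and lines for means of 3. The CEBPE share is smaller in each IKZF1-ko bar (10.3 to 13.1%) than in each NT control bar (16.6 to 18.7%).

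CEBPA (ENSG00000245848, chromosome 19, 33299934 to 33302564, minus strand) has a single exon, which shares positions with 2 genes on the opposite strand that had under 0.3 CPM. It was at 241, 223 and 254 CPM in NT control replicates 1, 2 and 3 and at 237, 261 and 246 CPM in IKZF1-ko. The groups overlapped, and the lowest value was that of NT control replicate 2. The log2 fold change was 0.05 on group alone (edgeR adjusted p = 1) and 0.03 in the 4 libraries (adjusted p = 0.693). The 95% interval in the 4 libraries ran from a fold of 0.959 to 1.09. CEBPA-DT, a noncoding gene that starts 293 bases away and runs in the other direction, was at 10.1 and 12 CPM in the 2 libraries that stood apart and at 3.9 to 6.15 CPM in the other 4.

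SPI1 (ENSG00000066336, chromosome 11, 47354860 to 47378576, minus strand) has no exon overlap. It was at 230.4, 226 and 231 CPM in NT control replicates 1, 2 and 3, an SD of 3.13 CPM. In IKZF1-ko replicates 1, 2 and 3 it was at 196, 239.9 and 229 CPM. IKZF1-ko replicate 1 was the low library, and the other 2 lay with NT control. The log2 fold change was -0.05 (edgeR adjusted p = 1) on group alone, -0.05 (adjusted p = 0.585) with the library-set term and 0.02 (adjusted p = 0.796) in the 4 libraries, where the 95% interval ran from a fold of 0.954 to 1.08. With IKZF1-ko replicate 1 alone left out of the 6 it was 0.035 (adjusted p = 1), so the sign turned with that library.

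CEBPG (ENSG00000153879, chromosome 19, 33373330 to 33382686, plus strand) lies on the same chromosome as CEBPA and has no exon overlap. It was at 74.9, 77.4 and 80 CPM in NT control replicates 1, 2 and 3 and at 86, 85.6 and 88.5 CPM in IKZF1-ko. The groups did not overlap, but the gap between them was small. Counts of CEBPG per CEBPA count overlapped, at 0.311 to 0.346 in NT control and 0.328 to 0.363 in IKZF1-ko (exact permutation p = 0.2). The CEBPG share of the summed level per kb of the zipper members did not overlap (10.9 to 11.1% and 11.7 to 12.6%). The log2 fold change was 0.16 (edgeR adjusted p = 1) on group alone, 0.17 (adjusted p = 0.0509) in the 4 libraries and 0.16 (adjusted p = 0.0502) with the library-set term, so CEBPG did not pass. It passed in the 4 libraries when genes under 1 CPM were left out (adjusted p = 0.0467).

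CEBPB (ENSG00000172216, chromosome 20, 50190734 to 50192689, plus strand) has a single exon, part of which CEBPB-AS1, at 0.267 to 0.709 CPM, overlaps on the other strand. It was at 6.96, 5.26 and 6.65 CPM in NT control replicates 1, 2 and 3, from 76 to 82 counts, and at 6.15, 7.81 and 8.81 CPM in IKZF1-ko, from 92 to 149 counts. The groups overlapped through IKZF1-ko replicate 1. The log2 fold change was 0.28 (edgeR adjusted p = 1) on group alone and 0.28 (adjusted p = 0.269) in the 4 libraries, where the 95% interval of the fold was 0.967 to 1.53. With a surrogate variable it was 0.33 (interval of the fold 1.03 to 1.54, edgeR adjusted p = 0.175), so CEBPB did not pass.

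CEBPD (ENSG00000221869, chromosome 8, 47736909 to 47739086, minus strand) has a single exon without overlap. It was at 29.8, 54.5 and 45.1 CPM in NT control replicates 1, 2 and 3 and at 60.7, 45.6 and 47.3 CPM in IKZF1-ko. The libraries that stood apart, NT control replicate 2 and IKZF1-ko replicate 1, were the highest, and NT control replicate 1 was far below all others. CEBPD rose in the 4 libraries (log2 fold change 0.31, SE 0.103, edgeR adjusted p = 0.0381), but the value turned on the NT control libraries. Without NT control replicate 1 the log2 fold change was 0.04 (edgeR adjusted p = 0.854) and without NT control replicate 3 it was 0.64 (adjusted p = 4.89e-08). DESeq2 gave the same fold change of 0.31 with an adjusted p of 0.697, and CEBPD passed in the other 8 of 10 alternatives. It did not pass with the library-set term (0.26, adjusted p = 0.1) or on group alone (0.25, adjusted p = 1). The neighbouring gene SPIDR, 603 bases away on the other strand, was also highest in those 2 libraries, at 123 and 130 CPM against 90.6 to 98 CPM.

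CEBPZ (ENSG00000115816, chromosome 2, 37201612 to 37231713, minus strand, up to 16 exons) overlaps exons of CEBPZOS and NDUFAF7 on the other strand, so its counts are uncertain unless the counting used strand. It was at 51.8, 41.3 and 51 CPM in NT control replicates 1, 2 and 3 and at 37.4, 47.5 and 51.5 CPM in IKZF1-ko. The low values were those of the 2 libraries that stood apart, and the groups overlapped. NDUFAF7, a mitochondrial assembly factor gene, ran the other way, at 22 and 21.5 CPM in those libraries against 12.6 to 15.6 CPM in the others. The log2 fold change of CEBPZ was -0.06 (edgeR adjusted p = 0.664) in the 4 libraries and -0.08 (adjusted p = 0.451) with the library-set term.

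**Figure D3:**
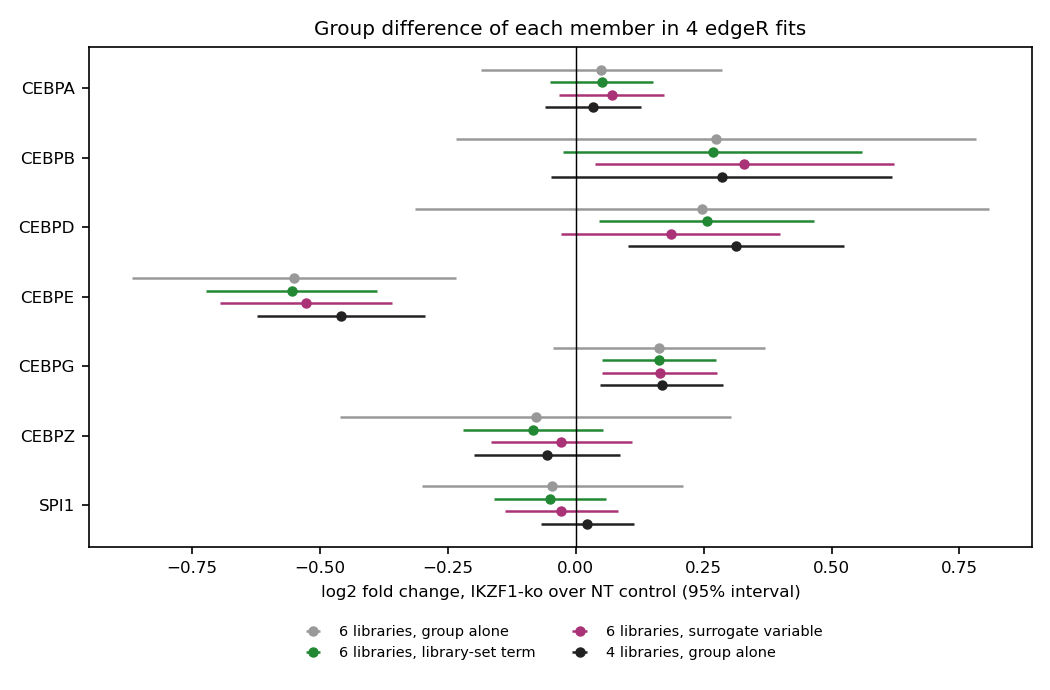
Log2 fold change of each member, IKZF1-ko over NT control (horizontal axis), with 95% intervals from 4 edgeR fits marked by colour. The CEBPE intervals lie below 0 in all 4 fits, the CEBPA, CEBPZ and SPI1 intervals include 0 in all 4, and the intervals on group alone are the widest.

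The members did not move as 1 block across the 6 libraries. CEBPE and CEBPG had opposite patterns (Pearson r = -0.87 over 6 libraries), as did CEBPD and CEBPZ (-0.76), while CEBPZ and SPI1 (0.80) and CEBPA and CEBPB (0.72) were alike. The points share the library sets and the groups, so these values are descriptions. Among 9062 genes of at least 10 CPM, those with the pattern most like CEBPE were UBB, a polyubiquitin gene (r = 0.996), and ABRACL (0.995). UBB was at 525 to 556 CPM in NT control and 399 to 464 CPM in IKZF1-ko. EIF4H (0.995) and DTX3L (0.993) were most like CEBPG, PDXDC1 (0.997) and CSNK1G2 (0.983) most like CEBPA, and TOLLIP (0.992) and DUSP14 (0.987) most like SPI1. ITPR1 (0.997) and ENAH (0.992) were most like CEBPB, ENTREP3 (0.985) and KBTBD6 (0.984) most like CEBPD, and SBDS (0.997) and MDM1 (0.997) most like CEBPZ. These values describe 6 libraries and carry no p.

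Genes of the surrounding network were read by list, beside 7.64% of all genes rising and 7.1% falling in the 4 libraries (edgeR adjusted p under 0.05), and 6.93% and 6.62% with the library-set term. With a surrogate variable 4.38% of all genes rose and 3.53% fell. On group alone 0 genes of any list passed. Of the tested genes given by name from these lists, ATF5, DDIT3, TLR4, NOP2, NOP56, BPI and SPIB share exon positions with another gene on the same strand, so their counts are uncertain. JUNB, FLI1, CALR, MYB, ITGB2, LYZ, DDIT4, VLDLR, SLC7A5 and RBM15 do so with a gene on the other strand, so theirs are uncertain unless the counting used strand. The median log2 fold change of all tested genes was 0.002 in both of these fits.

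Of 14 listed genes of secondary and eosinophil granules, 4 had enough counts to be tested. Of these 2 fell in the 4 libraries, RNASE2 and RNASE3, which encode eosinophil ribonucleases, and 0 rose (list median -0.37), and with the library-set term 3 fell and 0 rose (median -0.48), as with a surrogate variable (median -0.45). RNASE2 was at 194, 180.2 and 206 CPM in NT control replicates 1, 2 and 3 and at 113, 157 and 162 CPM in IKZF1-ko (log2 fold change -0.33, edgeR adjusted p = 9.67e-06). RNASE3 was at 17.9, 17.2 and 16.2 CPM and at 10.3, 12.9 and 12.7 CPM (-0.41, adjusted p = 0.017). In both, the groups did not overlap. EPX, the eosinophil peroxidase gene, fell with the library-set term (-1.40, adjusted p = 0.00314) and not in the 4 libraries (-0.86, adjusted p = 0.105), and it was highest in NT control replicate 2 at 6.42 CPM. BPI, a bactericidal protein gene that this list holds although its product is stored in primary granules, was at 18.2 ± 9.44 and 18.8 ± 8.93 CPM (SD, n = 3 each). LTF, LCN2, CAMP and MMP8, the classic secondary granule genes, had 0 to 3 counts in every library, so a difference in them was not detectable at this depth. MMP9, also too low to test, had 0 counts in each NT control library and 9, 2 and 2 in IKZF1-ko replicates 1, 2 and 3. The other untested genes of the list were PRG2 (1 to 4 counts), PRG3 (3 to 7 counts) and CRISP3, CEACAM8 and CLC (0 counts).

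Primary granule genes moved both ways. All 8 were tested, and 4 rose and 2 fell in the 4 libraries (median 0.42), 3 and 2 with the library-set term (median 0.28), and 2 and 2 with a surrogate variable (median 0.08). The serine protease genes ELANE, CTSG and PRTN3 rose. CTSG was at 247, 291 and 245 CPM in NT control replicates 1, 2 and 3 and at 388, 414 and 381 CPM in IKZF1-ko, with no overlap (1.61-fold, edgeR adjusted p = 3.16e-12). ELANE rose 1.88-fold in the 4 libraries (adjusted p = 1.01e-12), and its groups overlapped because NT control replicate 2 was at 199 CPM. PRTN3 was at 144, 506 and 147 CPM in NT control replicates 1, 2 and 3 and at 553, 219 and 222 CPM in IKZF1-ko. Its groups overlapped, and the libraries that stood apart were far above the rest. PRTN3 rose 1.51-fold in the 4 libraries (edgeR adjusted p = 1.29e-10), but in the fit with a surrogate variable its adjusted p was 0.119. SRGN, the proteoglycan of the granule core, fell 1.41-fold (adjusted p = 3.14e-10).

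Genes known as PU.1 targets changed in both directions. Of 24 listed, 20 were tested, 5 rose and 2 fell in the 4 libraries (median 0.12), 3 and 2 with the library-set term (median 0.12), and 4 and 3 with a surrogate variable (median 0.10). CSF1R, the receptor of macrophage colony-stimulating factor, and AIF1, a calcium-binding protein gene of macrophages, rose most. AIF1 was at 14.2, 10.8 and 11.8 CPM in NT control replicates 1, 2 and 3 and at 26.9, 30 and 31 CPM in IKZF1-ko (2.34-fold, edgeR adjusted p = 1.11e-09). CSF1R was 3.67-fold higher (adjusted p = 1.4e-09), from a low level. It was at 4.58, 1.3 and 3.85 CPM in NT control replicates 1, 2 and 3 and at 7.82, 16.8 and 14.1 CPM in IKZF1-ko. The toll-like receptor gene TLR4 (1.53-fold lower, adjusted p = 0.000931) and the integrin gene ITGB2 (log2 fold change -0.32, adjusted p = 0.00126) fell. ITGAM, CD14, FCGR3A and CD68 had too few counts to be tested.

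Of 12 relatives and partners of PU.1, 8 were tested, 2 rose and 1 fell in the 4 libraries (median 0.11), and 1 and 1 both with the library-set term and with a surrogate variable. GATA2, a progenitor factor that opposes PU.1, was at 26, 16.7 and 25.4 CPM in NT control replicates 1, 2 and 3 and at 7.75, 13.6 and 13.7 CPM in IKZF1-ko (1.88-fold lower, edgeR adjusted p = 2.14e-07). The ETS gene FLI1 rose 1.21-fold (adjusted p = 0.000468) and IRF8, a DNA-binding partner of PU.1, 1.12-fold (adjusted p = 0.017, and 0.0864 with the library-set term). CBFB, the partner of RUNX1, had a log2 fold change of -0.14 (adjusted p = 0.0695). SPIB, the nearest relative of PU.1, was at 0.616 ± 0.532 and 0.91 ± 0.403 CPM (SD, n = 3 each), and SPIC and ERG had 0 counts.

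Regulators of C/EBP level or activity split evenly in the 4 libraries: of 19 listed, 18 were tested, 4 rose and 4 fell (median 0.04), 3 and 4 with the library-set term (median 0.04), and 2 and 4 with a surrogate variable (median 0.02). CALR, whose product calreticulin can bind CEBPA mRNA, fell most, from 1892, 1598 and 1940.1 CPM in NT control replicates 1, 2 and 3 to 907, 1126 and 1092 CPM in IKZF1-ko (1.73-fold lower, edgeR adjusted p = 1.4e-14). MYB, a progenitor factor, fell 1.19-fold (adjusted p = 0.000104). CSF3R, the receptor for granulocyte colony-stimulating factor and a known C/EBPα target, rose 1.17-fold (adjusted p = 0.000579), with NT control replicate 2 and IKZF1-ko replicate 1 far above the rest at 399.5 and 412 CPM. With a surrogate variable its log2 fold change was 0.04 (edgeR adjusted p = 0.754), so that call was lost. The immediate early gene EGR1 rose 1.82-fold in the 4 libraries (adjusted p = 9.47e-10) and did not pass with the library-set term (adjusted p = 0.104). EGR1 was highest in NT control replicate 2, at 99.7 CPM against 56.7 to 79.9 CPM in IKZF1-ko.

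Genes known as ATF4 targets, the group that C/EBPγ is tied to, rose in 11 of 13 members in the 4 libraries, with 0 falling (median 0.30). With the library-set term 3 rose and 0 fell (median 0.14), and with a surrogate variable 6 rose and 0 fell (median 0.25). DDIT4, an inhibitor of mTORC1 signalling, was at 81.7, 71 and 87.7 CPM in NT control replicates 1, 2 and 3 and at 81.1, 162 and 153 CPM in IKZF1-ko (1.86-fold in the 4 libraries, edgeR adjusted p = 6.76e-13). PHGDH, the entry enzyme of serine synthesis, rose 1.29-fold (adjusted p = 5.18e-07) and the amino acid transporter gene SLC7A5 1.23-fold (adjusted p = 3.81e-06). These 2 did not pass with the library-set term (adjusted p = 0.318 and 0.928) or with a surrogate variable (0.332 and 0.2). VLDLR, a lipoprotein receptor gene, rose in both fits (1.29-fold, adjusted p = 2.46e-06 in the 4 libraries). In the pair that stood apart, 4 of the 13 genes were higher in IKZF1-ko replicate 1 than in NT control replicate 2 (30.8%, against 50.1% of all genes), and SLC7A5 was at 325 CPM in NT control replicate 2 and 217 CPM in IKZF1-ko replicate 1, below the 675 to 852 CPM of the other 4 libraries. ATF4 itself did not pass (log2 fold change -0.02, adjusted p = 0.853). Not every listed gene had this dip: VLDLR was at 148 CPM in NT control replicate 2 and 172 CPM in IKZF1-ko replicate 1. Both values lay within the 133 to 177 CPM of the other 4 libraries. CEBPG showed no such dip in those 2 libraries either, and what sets the dip was not tested.

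Of 20 dimer partners and relatives with a leucine zipper, 16 were tested in the 4 libraries, 4 rose and 0 fell (median 0.20). With the library-set term 15 were tested and 0 passed (median 0.17), and 0 passed with a surrogate variable (median 0.13). The ATF4 relative ATF5 rose 1.38-fold in the 4 libraries (edgeR adjusted p = 3.05e-09) and DDIT3, which encodes the stress factor CHOP, a C/EBP relative that blocks DNA binding by its partners, 1.70-fold (adjusted p = 3.04e-05). DDIT3 was at 22.9 CPM in NT control replicate 2, above the 19 to 20.4 CPM of the IKZF1-ko libraries, while NT control replicates 1 and 3 were at 11.4 and 11.1 CPM. JUNB rose 1.22-fold (adjusted p = 0.00666) and FOSL2 1.16-fold (adjusted p = 0.0283). NT control replicate 2 was also above all IKZF1-ko libraries for ATF5 (471 against 351 to 420.2 CPM) and JUNB (54.7 against 47.5 to 53.9 CPM). For FOSL2 it lay among them (59 against 56.6 to 62.6 CPM).

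Of 13 nucleolar partners of CEBPZ and m6A writers, 2 fell and 0 rose in the 4 libraries (median -0.02) and with the library-set term. These were the ribosome maturation genes NOP2 (1.14-fold lower, edgeR adjusted p = 0.0174) and NOP56 (1.10-fold lower, adjusted p = 0.0334), each lowest in the libraries that stood apart, as CEBPZ was. With a surrogate variable 0 passed in this list. ZC3H13 and RBM15, of the m6A writer complex, had log2 fold changes of -0.09 (adjusted p = 0.25) and -0.08 (adjusted p = 0.581).

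**Figure D4:**
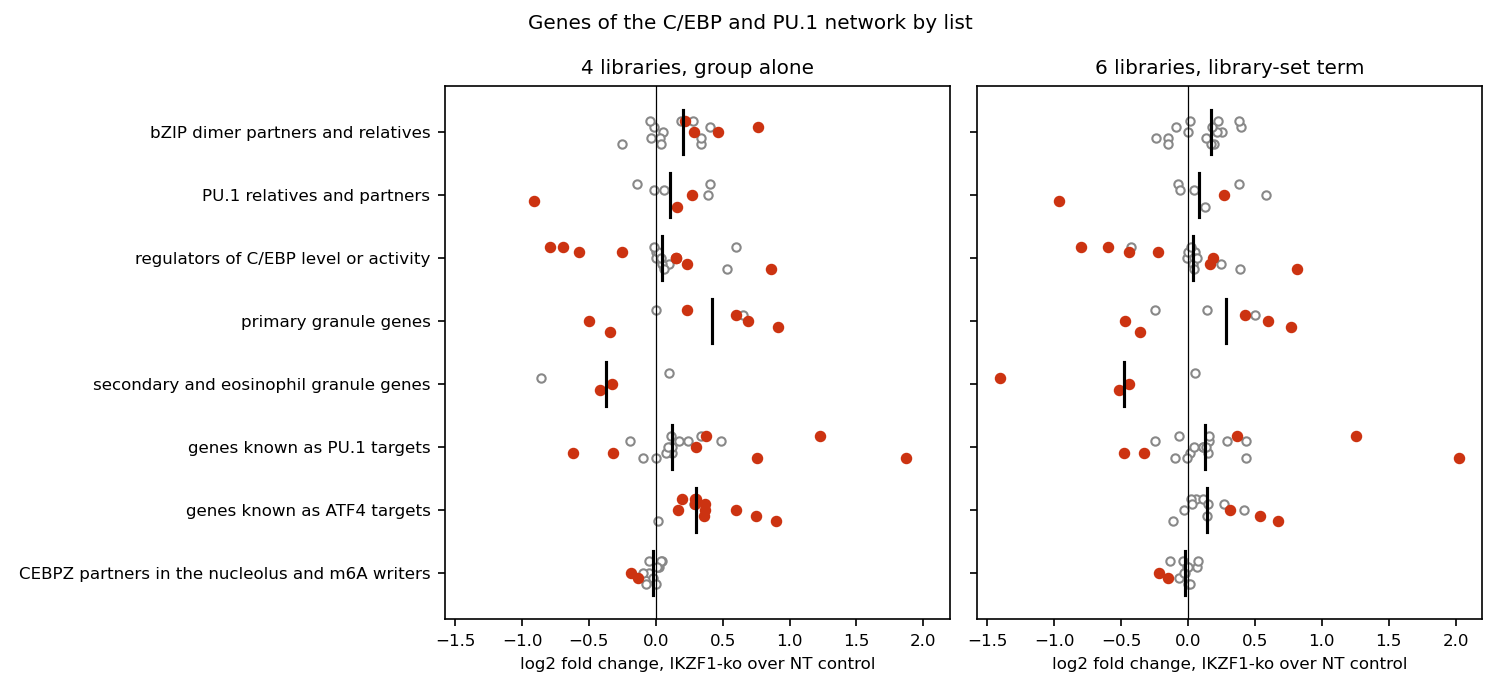
Log2 fold change of each tested gene of the lists (horizontal axis, IKZF1-ko over NT control) in the 4 libraries (left) and in all 6 with the library-set term (right). Red dots passed an edgeR adjusted p of 0.05, open dots did not, and bars are list medians. The ATF4 target dots that are red on the left (11) are mostly open on the right (3 red), while the red granule dots are on the same side of 0 in both panels.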

How the data were processed

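RNA was taken with the RNeasy kit and made into stranded mRNA libraries for a NovaSeq instrument, per the labels' protocols. Per the submitters' processing notes, Trimmomatic and STAR were used with the build GRCh38 (no versions stated). Which program counted the reads, whether it used strand, and with which annotation is not given in the sources used here. The deposited values are read counts per gene, used as whole numbers with no scaling by the authors. The table has 0 columns of other samples. Columns were assigned by library name and groups by title. Positions and exon lengths came from GENCODE release 29 (57895 of 58233 identifiers), and symbols from the gene name table (57392).

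The main test was edgeR 4.0.16 in R 4.3.3, with filterByExpr, TMM factors, the quasi-likelihood F test on group, two-sided, and Benjamini-Hochberg adjustment over all genes tested, threshold 0.05, on 6 libraries and on 4. Standard errors are the size of the log2 fold change over the square root of F. CPM values use the TMM factors, log2 CPM a prior count of 2, and values are means ± SD over libraries. CPM per kb divides by the summed exon length. Intervals of folds are confidence limits of the mean fold from the edgeR fits, whose spread was estimated in part from all genes together. They do not give the range of single libraries, and may be too narrow for a gene that varies more than most. In the 4 libraries the SE of CEBPD was 0.103 in edgeR and 0.292 in DESeq2, and that of CEBPE 0.0798 and 0.116.

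The library set is the sign of the first principal component. The members, the 4 libraries, the set term and the 8 lists (121 different genes) were chosen with earlier results of these data known. Genes named are the members, the 2 genes of at least 10 CPM most correlated with each, and up to 4 per list by lowest p in the 4 libraries. Genes within 10000 bases of a member and genes too low to test were named after their values were seen, as were ATF4 and SPIB. Of the members, 5 of 7 matched a RefSeq window. Pairing by replicate number was not seen, and the library sets could hide it. The alternatives were RLE and library-size scaling, other filters, DESeq2 1.42.0, limma-voom (limma 3.58.1), sva 3.50.0, a replicate block and each library left out. The tests were also run on simulated counts of independent libraries, with spreads fitted to these data. For the fit on group alone the simulated libraries held no library sets. Those runs cannot show how that fit behaves on these libraries. Figures used matplotlib 3.10.9.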

Additional observations from a re-analysis of the deposited data

How the results depend on the processing

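CEBPE was lower in IKZF1-ko under every alternative run, at log2 fold changes of -0.539 to -0.383 in the 4 libraries (adjusted p from 3.88e-06 in edgeR to 0.00244 in DESeq2, past the threshold in 10 of 10), and of -0.651 to -0.444 in 6 libraries, where it passed with the library-set term or surrogate variable and in 0 of 13 others (adjusted p from 0.0878 in DESeq2 to 1 in edgeR). In 6 libraries, genes called were 8 with no filter on low counts, 71 with DESeq2, 1 with limma-voom, 1765 with the library-set term and 1030 with a surrogate variable, and members called were 1 in each of the last 2. The cause was not tested. With the set term and without NT control replicate 1, 2 or 3, in that order, 948, 1937 and 1246 genes and 1, 3 and 2 members were called, and without IKZF1-ko replicate 1, 2 or 3 1943, 1443 and 811 genes and 3, 1 and 1 members. Leaving out NT control replicate 2 or IKZF1-ko replicate 1 leaves no second library in that set for the other to be compared with, so those fits rest on the 4 libraries. These runs were chosen after seeing the data. In the 4 libraries DESeq2 called 825 genes and 1 member, and leaving out 1 library left 1 to 2 members called: CEBPD was lost without NT control replicate 1. An arm of 1 library is then assumed to vary like the other.

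Members near 0 changed sign, and all of these values missed the threshold. With 1 library left out, CEBPZ ran from -0.18 to 0.045 and SPI1 from -0.106 to 0.035 in 6 libraries, and in the 4 libraries CEBPA ran from -0.01 to 0.079, CEBPZ from -0.114 to 0.004 and SPI1 from -0.009 to 0.056. SPI1 was at 0.024 with the set term and without NT control replicate 2 or IKZF1-ko replicate 1. The replicate block called 0 genes and 0 members (CEBPE -0.559, edgeR adjusted p = 1). Deviations of same-numbered libraries from their group means correlated at -0.655, -0.689 and 0.588, and NT control replicate 2 correlated best with IKZF1-ko replicate 1 (0.824). These values follow the library sets, so they cannot show whether a pairing by number lies beneath. Low counts limit CEBPB (76 to 149) most.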
